A study of Mus musculus with 12 samples.

Results

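A comparison of a condition called treated with a condition called untreated was deposited beside a dose series of interferon gamma (IFNγ) in mouse macrophages, and its contents are described here. Its members are the entries that the authors' software, Cuffdiff, marked OK, meaning that a test was made. These were 12854 of 46727 entries in the comparison, and the remainder were 33858 marked NOTEST, 10 marked HIDATA and 5 marked FAIL. An entry is a gene, or several overlapping genes merged into one value. For each, the log2 ratio was log2((treated + 1) / (untreated + 1)), and an entry counted as higher or lower in treated cells at a ratio of at least 1 in size, which is 2-fold on this scale.

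The labels describe macrophages grown for 10 days from bone marrow of C57BL6 mice with interleukin-3 and L-929 conditioned medium, a source of colony-stimulating factor 1. Fresh medium without IFNγ or with 0.2, 2 or 20 U/ml was then given for 8 h, with 3 libraries per group and 12 in all. The comparison names neither a dose nor an agent, and the labels and headers do not say what its treated cells received or which libraries entered it. Each condition has 1 value per entry, so the differences have no replicate check here. The only tests are the authors' own, and how many libraries stand behind them is not stated in the labels or headers.

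Macrophages answer IFNγ through a receptor that activates the kinases JAK1 and JAK2. Transcription factors downstream of them, among them IRF1, then switch on guanylate-binding proteins, immunity-related GTPases, antiviral genes and antigen presentation. Other signals leave other marks: MAP kinase and cAMP signals act on immediate early genes, oxidants and electrophiles act on NRF2 targets, shortage of amino acids or restrained translation initiation acts on ATF4 targets, and a surplus of sterols silences SREBP2 targets. These links are background knowledge.

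In the authors' deposited table, 2718 entries were higher (21.1% of those tested) and 2219 lower (17.3%) in treated cells. The scale of the 2 columns bears on this split. With both columns scaled to the same upper quartile, which was 1.29 times higher in treated cells, 1929 entries were higher and 3010 lower, so that 39.1% of the entries past the size rule were higher in place of 55.1%. Upper-quartile scaling moved the median log2 ratio of all entries from 0.03 to -0.22. The authors marked 8861 entries as significant at a q-value under 0.05, 35.1% of the tested entries in the higher direction and 33.8% in the lower. Their smallest p-value, 5e-05, was shared by 50.3% of tested entries, so the p-values do not rank them. Ratios of 3 or more were found in 249 entries and of -3 or less in 101. The values nearest the size rule were 1.00019 and 0.999954 on the higher side and -1.00181 and -0.999303 on the lower side.

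**Figure D1:**
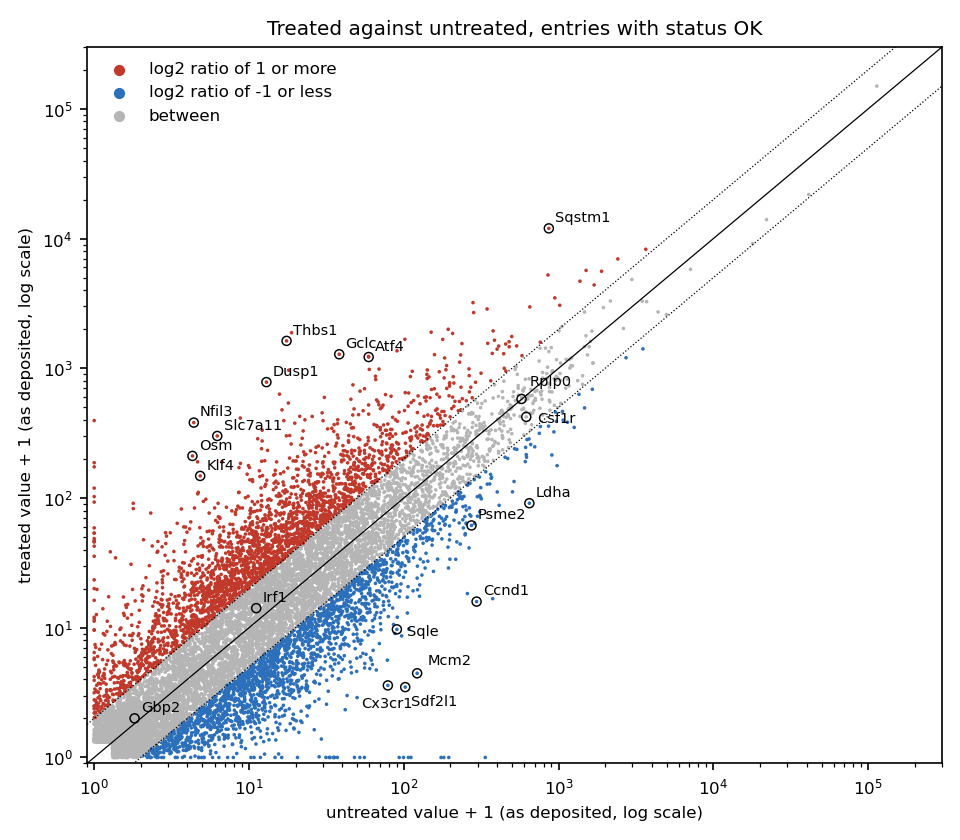
Deposited values in untreated (horizontal) and treated cells (vertical), each plus 1 on a log scale, with 1 point per tested entry, a solid line of equality and dotted lines at 2-fold. The 4 genes Nfil3, Dusp1, Osm and Klf4 lie far above the line, Mcm2, Sdf2l1 and Cx3cr1 far below it, and the IFNγ targets Irf1 and Gbp2 close to it.

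The promoter stretches below come from 6 genes of the lists described further on, each with a promoter match to a searched motif. They were read from RefSeq on GRCm38.p6 and end before the transcription start, with the match in capitals. Dusp1 is shown for a cAMP response element, Srxn1 and Osgin1 for AP-1 sites, Slc7a11 for the element of ATF4 with CEBP partners, Hmgcs1 for a sterol regulatory element and Mcm5 for an E2F site.
Dusp1, chr17:26508578-26508645, minus strand: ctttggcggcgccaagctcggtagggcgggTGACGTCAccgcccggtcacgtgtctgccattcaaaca
Srxn1, chr2:152105392-152105515, plus strand: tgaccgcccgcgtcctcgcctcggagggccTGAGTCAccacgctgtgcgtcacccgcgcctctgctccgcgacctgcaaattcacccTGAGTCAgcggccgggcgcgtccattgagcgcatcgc
Osgin1, chr8:119437020-119437086, plus strand: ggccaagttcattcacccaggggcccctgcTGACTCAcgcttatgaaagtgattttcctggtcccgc
Slc7a11, chr3:50443623-50443709, minus strand: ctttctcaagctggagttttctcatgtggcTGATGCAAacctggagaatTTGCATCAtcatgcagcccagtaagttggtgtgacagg
Hmgcs1, chr13:119690184-119690252, plus strand: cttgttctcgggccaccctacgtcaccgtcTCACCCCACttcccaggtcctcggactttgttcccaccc
Mcm5, chr8:75109326-75109393, plus strand: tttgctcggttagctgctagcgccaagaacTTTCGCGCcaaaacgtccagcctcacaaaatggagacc

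Each motif was searched on both strands in windows of 250 bases before to 50 bases after a start. TGACGTCA was found in 1.79% of all 32851 windows, TGANTCA in 7.81%, TGATGNAA in 3.97%, TCACNCCAC in 1.24% and TTTCGCGC in 0.32%. The Dusp1 match lies 143 bases before the start and has an E-box, CACGTG, close by. The Srxn1 matches begin 102 and 45 bases before the start, and the Slc7a11 matches 66 and 47. These genes were chosen because they hold a match, and a match is a description of the letters. Dusp1 is in the MAP kinase feedback list and Slc7a11 in the oxidant defence list. Neither is among the cAMP or stress response genes counted next. Among measured list genes with a promoter entry, TGACGTCA was found in 1 of 15 cAMP and CREB targets, beside 2.03% of all genes. TCACNCCAC was found in 1 of 14 sterol genes, beside 1.44%. TGATGNAA was found in 4 of 19 genes of the unfolded protein and integrated stress response, beside 4.51%. The shares of all genes include genes not measured here. For TGACGTCA, measured higher, lower and other genes had 4.86%, 2.19% and 3.94%. For TCACNCCAC they had 1.80%, 1.80% and 1.00%, and for TGATGNAA 3.17%, 2.71% and 2.39%.

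The 4 genes that mark the comparison were all far higher in treated cells. Nfil3, a transcription factor of the clock and of interleukin-10 responses (chromosome 13, 52967209 to 52981073, GRCm38), was at 380.5 against 3.40, which is a log2 ratio of 6.44 and a 112-fold difference of the deposited values. Dusp1, a phosphatase that switches off p38 and JNK, was at 782 against 11.96 (5.92). Osm, the cytokine oncostatin M (chromosome 11, 4236420 to 4241026), was at 210.1 against 3.31 (5.61). Klf4, a zinc finger factor of monocytes (chromosome 4, 55527143 to 55532466), was at 147 against 3.84 (4.93). Each had the smallest q-value of the authors' deposited table, 9.95e-05. The dose table was deposited separately as FPKM, a unit that accounts for transcript length and sequencing depth. There these genes had low values in all groups. Nfil3 was at 4.34 FPKM untreated and at 3.77, 6.04 and 10.6 at the rising doses, so that it passed the size rule at 20 U/ml. Dusp1 was at 9.72, 7.11, 9.16 and 9.46, Osm at 2.16, 1.75, 1.71 and 1.20, and Klf4 at 5.28, 4.83, 3.93 and 3.81.

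By the ranking rule, 9 of the 15 largest and 15 of the 15 smallest ratios were RNAs shorter than 200 nt, such as Gm25772 (394 against 0 in untreated cells) and Mir130c (0 against 335). Of these largest and smallest entries, 7 and 1 carried the authors' mark. An exact 0 for such RNAs can be a failed estimate. The rule was therefore repeated without RNAs under 200 nt, a choice made after the values were seen. The noncoding entry Gm29233 then led with 1881 against 17.8 (6.64), followed by Thbs1, the matrix protein thrombospondin 1, at 1626 against 16.5 (6.54). They overlap on opposite strands, so that their reads may not be separable. Nt5e, the ecto-enzyme CD73 that makes adenosine, was at 90.0 against 0.787 (5.67). Ptgs2, the inducible prostaglandin synthase COX-2, was at 37.5 against 0.271 (4.92), and Vegfa, the angiogenic growth factor, at 539 against 17.0 (4.91).

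Without RNAs under 200 nt, the smallest ratios included those of the following genes. Sdf2l1, a chaperone cofactor of the endoplasmic reticulum, was at 2.48 against 101 in untreated cells (-4.87). Mcm2, a subunit of the replicative helicase, was at 3.46 against 121 (-4.77). Igfbp4, a binding protein of insulin-like growth factors, was at 15.8 against 374 (-4.49), and Cx3cr1, the fractalkine receptor of resident macrophages, at 2.59 against 77.9 (-4.46). Ccnd1, the G1 cyclin that growth factors induce, was at 14.9 against 294 (-4.22). Plau, the urokinase protease, was at 17.3 against 257 (-3.81).

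Gene lists were then read one at a time, using only entries that hold 1 gene. Their counts stand beside 21.1% higher and 17.3% lower among all tested entries. The lists overlap, so that their counts are not independent. Nfil3 is in the STAT3 and clock lists, Bcl3 in the NF-κB and STAT3 lists, and Per1 in the clock and glucocorticoid lists. The markers Nfil3, Dusp1, Osm and Klf4 are themselves list members. Lists of signal-responsive regulators had the highest medians, beside a median of 0.03 over all tested entries. Of 26 measured immediate early transcription factor genes, 24 were higher and 1 lower. Their median log2 ratio was 2.93, and 25 carried the authors' mark in the higher direction. Fosl2, an AP-1 subunit, was at 413 against 7.79, Jun at 868 against 64.6, and Btg2, an antiproliferative regulator, at 43.6 against 1.90. The exception, Klf2, a zinc finger factor of quiescent cells, was at 2.41 against 7.10 (-1.25).

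Genes that restrain these signals were higher as well. In the list of MAP kinase and mRNA decay feedback, 16 of 21 were higher and 0 lower (median 2.39). Dusp16, a phosphatase of JNK, was at 58.1 against 3.81, and Errfi1, an inhibitor of the EGF receptor, at 96.9 against 4.26. Rgs1, which shortens signals of G protein-coupled receptors, was at 986 against 68.2, and Zfp36, which speeds decay of cytokine mRNAs, at 133 against 21.2. Dusp2 (1.06 against 1.47) and Spred1 (42.4 against 44.5) did not pass the size rule.

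Of 22 cAMP and CREB target genes, 17 were higher and 0 lower (median 2.52). The list shares Thbs1, Vegfa and the Nr4a genes with others. Pde4d, a phosphodiesterase that breaks down cAMP, was at 33.6 against 0.374, and Crem, a repressor that cAMP induces, at 103 against 14.04. Receptors that raise cAMP were also higher, namely Ptger2 for prostaglandin E2 (58.8 against 2.89) and Adora2b for adenosine (14.8 against 1.45). Pde4a, in contrast, was at 1.398 against 3.36.

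STAT3 targets and genes of the interleukin-10 response were higher in 13 of 17 with 0 lower, at a median of 2.096. At 20 U/ml IFNγ the dose table also gave this list a raised median, 1.11, with 9 higher and 0 lower. Arid5a, which stabilizes cytokine mRNAs, was at 75.5 against 1.32, the survival kinase Pim1 at 171 against 7.62, and Bcl3, a nuclear regulator of NF-κB, at 232 against 12.2. Il4ra, the receptor chain of interleukins 4 and 13, was at 442 against 58.3. Clock genes were higher in 11 of 17 and lower in 0, including Nr1d1, the repressor REV-ERBα, at 41.7 against 1.37 and Per1 at 68.6 against 5.49. The core factors Clock (10.2 against 5.77) and Per2 (1.95 against 1.505) did not pass. Among 14 genes of TGF beta and BMP signals, 10 were higher and 0 lower, led by the inhibitor Smad7 (90.0 against 5.32), the repressor Tgif1 (577 against 44.6) and Id3 (550 against 67.2).

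**Figure D2:**
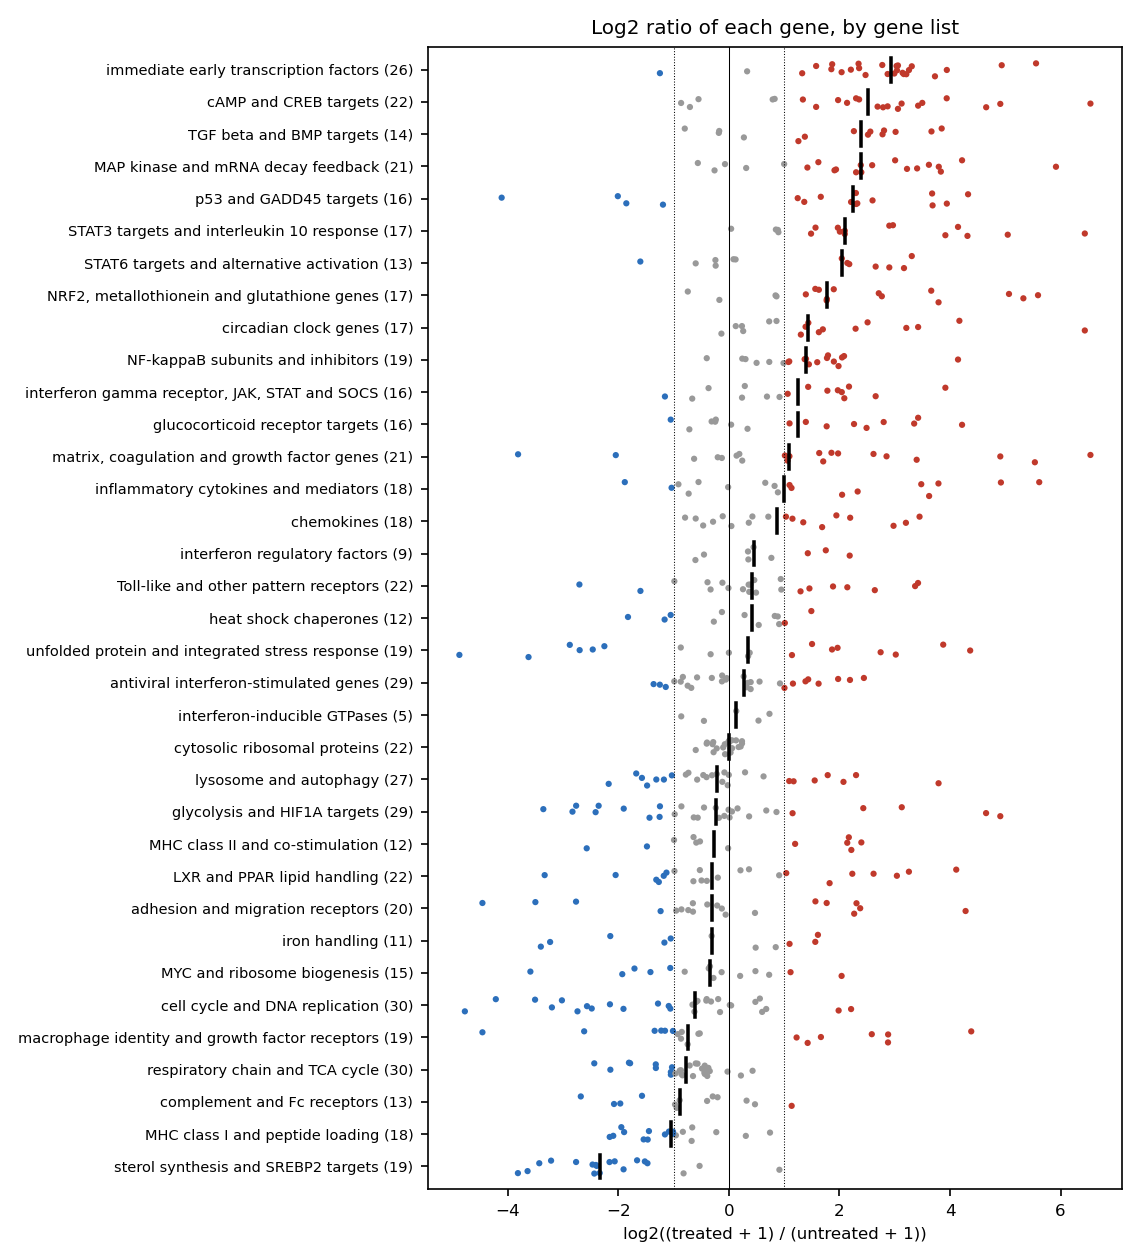
Log2 ratio of each gene by list, with the number of genes measured in brackets, a black bar at the list's median and dotted lines at the size rule. Immediate early genes lie mostly right of 1 with a median of 2.93, sterol synthesis genes mostly left of -1 with a median of -2.34, and ribosomal protein genes around 0.

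Inflammatory genes were split. Of 19 NF-κB subunit and inhibitor genes, 13 were higher and none lower, at a median of 1.395, among them Relb at 48.3 against 10.6 and the inhibitor Nfkbia at 95.5 against 44.3. Of 18 cytokine and mediator genes, 9 were higher and 2 lower. Il1b was at 13.0 against 0.138, Saa3, an acute phase protein, at 75.5 against 4.53, and Acod1, which makes itaconate, at 18.7 against 0.770. Tnf was at 13.7 against 8.33 (0.66), Il10 at 0.11 against 0.624, and Tnfsf9, the ligand of 4-1BB, at 1.82 against 9.40 (-1.88). Il12b and Csf2 stayed under 0.1 in both conditions. Of 18 chemokine genes 9 were higher and 0 lower, and the neutrophil attractant Cxcl2 stood at 31.6 against 1.99, while Ccl2 was at 64.4 against 62.3 and Ccl3 at 47.1 against 50.9. Pattern receptors included the lipopolysaccharide co-receptor Cd14 at 1999 against 193 and Tlr2 at 400.2 against 36.4, with Tlr1 at 0.946 against 11.7 and Tlr3 at 0.236 against 2.74.

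Oxidant defence genes were mostly higher in treated cells. NRF2 drives genes that import cystine, build glutathione and reduce peroxides. Of 17 measured genes of this list, which also holds metallothioneins, 13 were higher and 0 lower (median 1.77), and 15 carried the authors' mark in the higher direction. Slc7a11, the cystine importer whose promoter is shown above, was at 299.9 against 5.24 (5.59). Gclc, the catalytic subunit of the first enzyme of glutathione synthesis, was at 1282 against 37.3 (5.07). Osgin1, an oxidative stress-induced growth inhibitor, was at 631 against 14.7 (5.33). Srxn1, which repairs oxidized peroxiredoxins, was at 1898 against 149 (3.66), and Txnrd1, thioredoxin reductase, at 1203 against 183 (2.71).

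Sqstm1, the autophagy receptor p62 and an NRF2 target, had the highest treated value of any tested entry outside the mitochondrial tRNAs, at 11989 against 864. Hmox1, which breaks down haem, was already at 1895 in untreated cells and at 5601 in treated cells. The classical target Nqo1 was also higher, though at low values, 10.2 against 2.62. Gstm1, in contrast, was at 104 against 174. At 20 U/ml IFNγ the dose table gave this list a median of -0.63, with 0 higher and 2 lower. TGANTCA was found in the promoter of 5 of the 14 measured genes of this list with a promoter entry, beside 8.97% of all genes. The NRF2 core TGACNNNGC was also found in 5 of 14, beside 13.99% of all genes. Among measured genes only, TGANTCA was in 7.87% of higher, 4.96% of lower and 5.62% of other genes. For TGACNNNGC these shares were 19.5%, 16.0% and 16.8%.

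The list of the unfolded protein and integrated stress response held genes of both directions. Among 19 genes 8 were higher and 6 lower, and the median of 0.35 became -0.02 under upper-quartile scaling. The higher genes included Atf4, the factor translated when initiation is restrained, at 1221 against 58.3, Ddit3, the death-linked factor CHOP, at 328 against 21.4, Sesn2 at 54.6 against 5.85, and Trib3 at 23.6 against 2.66. The lower genes included proteins of folding in the reticulum, Sdf2l1 (above), Calr at 177 against 977, Pdia6 at 27.9 against 136 and Creld2 at 3.74 against 33.8. The serine synthesis genes Phgdh (1.57 against 30.7) and Psat1 (2.26 against 20.2), known ATF4 targets, were also lower, and Asns was at 41.1 in both. Heat shock genes had 2 higher and 3 lower among 12, beside 21.1% and 17.3% of all tested entries. Hspa1a was at 0.624 against 0.117, and the mitochondrial chaperone Hspd1 at 21.6 against 79.1.

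**Figure D3:**
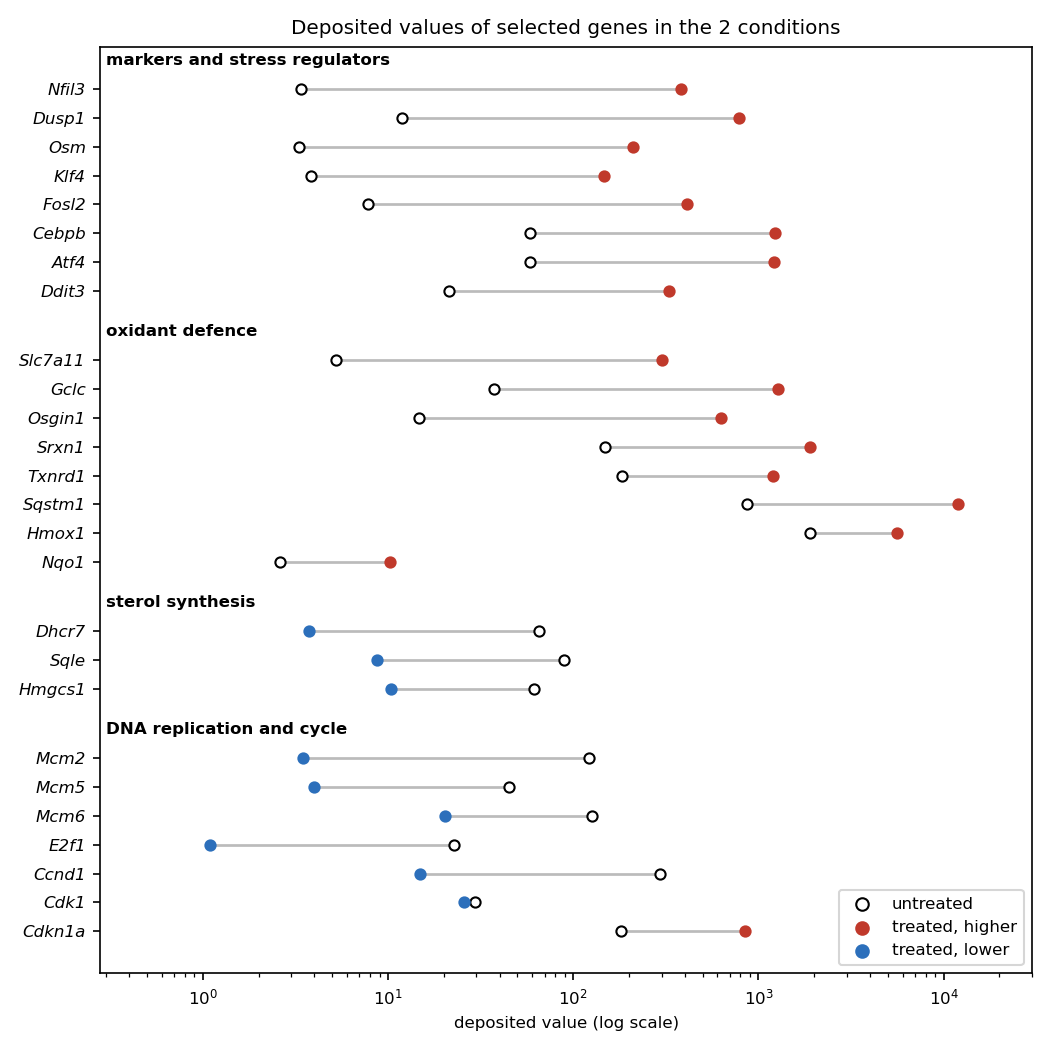
Deposited values in untreated (open) and treated cells (filled, red where higher and blue where lower) on a log scale for selected genes in 4 groups. Marker and oxidant defence genes move to the right, such as Nfil3 from 3.40 to 380.5, and the plotted sterol, replication and cycle genes to the left except Cdkn1a.

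Sterol genes had the largest lower share among the programme lists. SREBP2 switches on the enzymes of cholesterol synthesis when sterols are scarce. Of 19 measured genes, 16 were lower and 0 higher (median -2.34), and 18 carried the authors' mark in the lower direction. Dhcr7, which acts late in the pathway, was at 3.72 against 65.5, and Sqle, squalene epoxidase, at 8.72 against 89.3. Hmgcs1, whose promoter is shown above, was at 10.4 against 61.7.

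Genes of sterol export and lipid storage differed from the synthesis list. Abca1 and Abcg1, LXR targets that export cholesterol, were at 169 against 16.8 and at 25.9 against 4.73, and Mylip, a ubiquitin ligase that LXR induces, at 301 against 16.4. Plin2, which coats lipid droplets, was at 5238 against 853. Other genes of this list of 22, with 7 higher and 6 lower, were below untreated values: Apoe at 1411 against 3506, Lpl at 71.4 against 298, and Ch25h, which makes 25-hydroxycholesterol, at 1.42 against 23.3.

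Of 30 cell cycle and DNA replication genes, 13 were lower and 2 higher (median -0.61). The helicase subunits Mcm3 (9.60 against 84.9), Mcm5 (3.97 against 44.7) and Mcm6 (20.4 against 126) were lower, as was E2f1 (1.09 against 22.8), a driver of S phase. Other members did not pass the size rule, such as the replication clamp Pcna at 220.2 against 149, the mitotic kinases Cdk1 at 25.8 against 29.6 and Plk1 at 3.92 against 3.87, and Mki67 at 0.532 against 1.03. Replication and mitosis were not counted as separate lists. The higher pair were the cell cycle inhibitors Cdkn1a (843 against 181) and Cdkn1b (1.99 on the log2 scale). TTTCGCGC was found in the promoters of 3 of the 23 measured genes of this list with a promoter entry, beside 0.37% of all genes. Among measured genes only, it was in 0.82% of higher, 1.16% of lower and 0.65% of other genes.

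The p53 and GADD45 list was divided, with 12 of 16 higher and 4 lower. Mdm2, the ligase that degrades p53, was at 666 against 51.2 and Gadd45a at 426 against 20.3, whereas Sesn1 was at 1.89 against 48.9, Ccng1 at 10.9 against 46.9, Phlda3 at 2.71 against 12.4 and Zmat3 at 1.48 against 4.67. Of 29 glycolysis and HIF1A genes, 5 were higher and 9 lower, beside 21.1% and 17.3% of all tested entries. Hif1a (188 against 34.0) and the regulator Pfkfb3 (285 against 10.4) were higher, and the enzymes Ldha (90.2 against 647), Gapdh (314 against 750.3) and Pdk1 (3.49 against 44.9) were lower. Of 30 respiratory chain and TCA cycle genes, 10 were lower (17 under upper-quartile scaling) and 0 higher, with 25 marked by the authors as lower, led by Mdh1 (-2.43 on the log2 scale) and Idh3a (5.67 against 28.5). The 22 ribosomal protein genes had 0 in either direction and ratios from -0.60 to 0.24.

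Iron genes differed in both directions. Tfrc, the transferrin receptor, was at 3.02 against 36.8 and Hfe, its regulator, at 4.30 against 55.0, while the exporter Slc40a1 was at 714 against 233. Of 11 genes in this list 3 were higher and 5 lower. Among lysosome genes, 7 of 27 were higher and 7 lower, beside 21.1% and 17.3% of all tested entries. The factors Tfeb (127 against 24.98) and Mitf (65.2 against 18.2) were higher and the enzymes Ctsa (111 against 503), Hexa (189.9 against 609) and Ctss (494 against 1472) lower.

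The IFNγ programme was next read gene by gene, since the labels name no other agent. Its receptor chains and kinases were not lower: Ifngr1 was at 113 against 92.0, Ifngr2 at 188 against 89.4, Jak1 at 141 against 51.6 and Jak2 at 29.3 against 5.72. Its targets differed among themselves. Irf1 was at 13.2 against 10.1 in the authors' deposited table, without their mark (q-value 0.075), and at 34.1 FPKM untreated and 89.1, 293 and 511 FPKM at the 3 doses. Gbp2 was at 1.00 against 0.824 and reached 343 FPKM at 20 U/ml from 8.13. Socs1, the JAK inhibitor that IFNγ induces, was at 1.19 against 0.858, and at 138 FPKM at 20 U/ml from 2.06. Tap1, the peptide transporter, was at 10.0 against 21.2.

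Cxcl9, Ciita, Nos2 and Iigp1 were all under 0.3 in both conditions and not tested by the authors. Cd274, the checkpoint ligand PD-L1, was higher, at 23.2 against 4.37, as was Socs3, which STAT3 also induces, at 37.9 against 1.58. These genes of the pathway were named whatever their ratios. Further genes that rose with dose were higher here too, with the authors' mark. Cxcl10, a chemokine that attracts T cells, was at 10.4 against 1.497, and at 151 FPKM at 20 U/ml from 2.88. Ccl5, another T cell attractant, was at 14.1 against 0.645, and at 106 FPKM at 20 U/ml from 1.57. Irf7, a regulator of type I interferon genes, was at 9.81 against 3.02.

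The interferon lists gave the following counts. Among 5 interferon-inducible GTPase entries of 1 gene, 0 were higher or lower by the size rule. The median was 0.13, or -0.04 under upper-quartile scaling, beside medians of 1.25, 3.51 and 5.24 at the rising doses. The authors marked 2 of these entries as higher and 2 as lower. Only Irgm1, at a log2 ratio of -0.86 and marked lower, had a mean value of at least 1. For the others the pseudocount limits the ratios. Gbp3 and Gbp5, both marked higher, were at 0.73 and 0.54, and at 1.59 and 1.79 with a pseudocount of 0.1. The near-zero median therefore does not show an unchanged family. Of the 20 genes in this list, another 7 were merged with neighbours and 8 not tested. Antiviral genes were higher in 8 of 29 and lower in 3 (median 0.27), or 6 and 8 under upper-quartile scaling, beside 29 higher at 20 U/ml. Over all tested entries of the comparison, 21.1% were higher and 17.3% lower. Rsad2, viperin, was at 14.01 against 1.76, and Mx2, a polymorphic pseudogene in GENCODE M21, at 4.59 against 0.225. Ifi204, a DNA sensor, was at 51.04 against 12.2, and Ifit1, which binds viral RNA, at 4.96 against 0.935. Eif2ak2, the RNA-activated kinase PKR, was at 2.45 against 7.87. In the list of MHC class I and peptide loading, 11 of 18 were lower and 0 higher, and the median was -1.05 beside 2.18 at 20 U/ml. Psme2, an activator of the immunoproteasome, was at 60.5 against 273 and Psmb8, one of its subunits, at 14.2 against 64.0. In the class II and co-stimulation list, H2-DMb1 was at 2.07 against 17.2, and Cd86, Cd80 and Icosl, which co-stimulate T cells, at 45.5 against 7.82, 18.2 against 3.36 and 26.2 against 4.86.

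**Figure D4:**
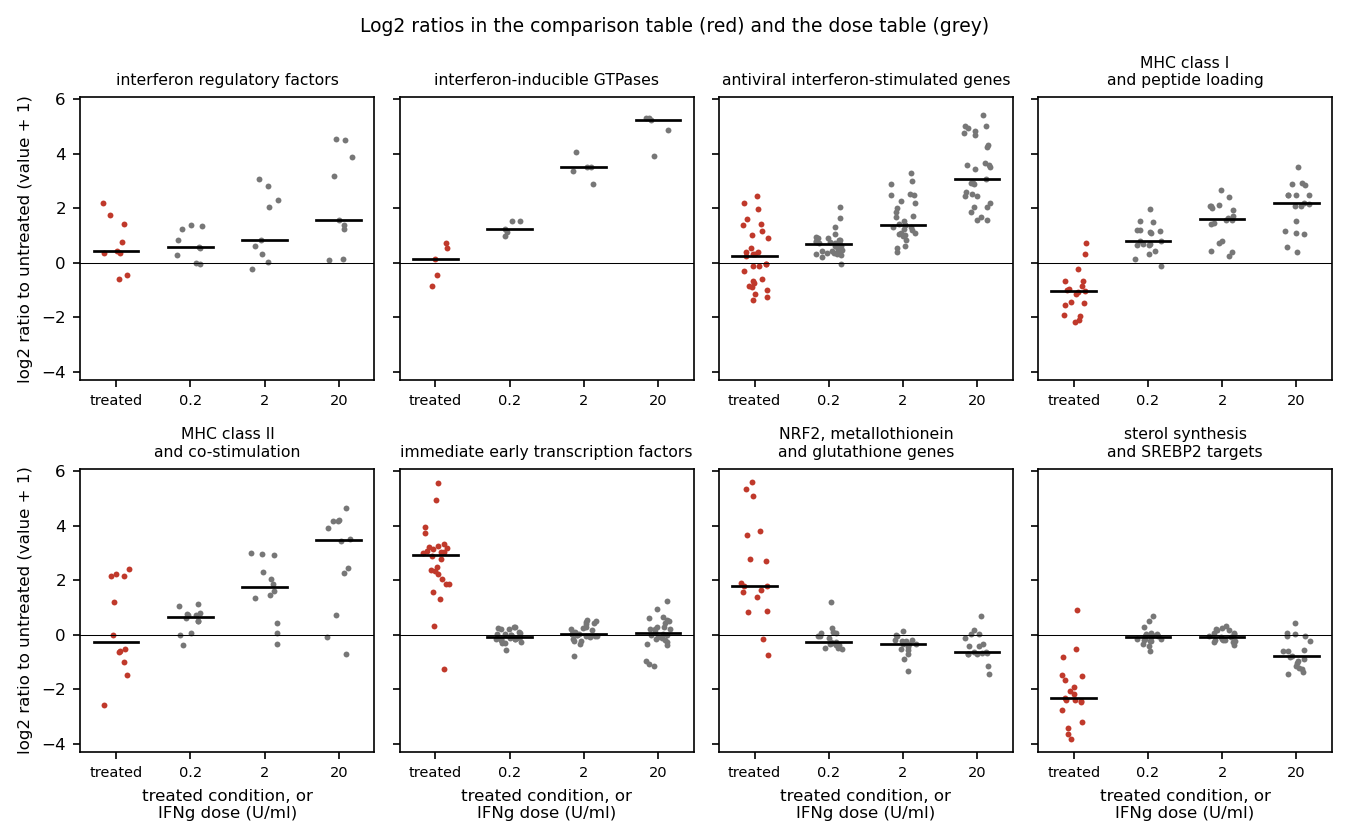
Log2 ratios to untreated for single-gene entries of 8 lists, in the comparison (red) and at 3 IFNγ doses of the dose table (grey), with bars at the medians. The 5 interferon lists climb with dose and have medians from -1.05 to 0.45 in the comparison, where the immediate early, oxidant and sterol lists have medians of 2.93, 1.77 and -2.34.

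The 2 tables also differ in their untreated values. Over 12797 entries tested in the comparison and also found in the dose table, the untreated columns had a Pearson correlation of 0.88. This was on the log2(value + 1) scale, and 5.97% of entries differed by 4-fold or more. Within the dose table, untreated cells and 20 U/ml had a correlation of 0.96 and such differences in 1.90%. These are descriptions across entries of the same columns, and entries are not replicates. Apoe was at 3506 in the comparison and 68.2 FPKM in the dose table, C1qb, a complement subunit, at 1140 and 21.4, Hmox1 at 1895 and 219.8, Malat1, a nuclear noncoding RNA, at 9.86 and 549.7, and Mki67 at 1.03 and 35.4. Only 16 entries above 0 had untreated values within 0.1% of each other. These genes were named after their values were seen. Of the same 12797 entries, 38.4% were past the size rule in the comparison, against 3.51%, 2.46% and 7.65% at the rising doses. Being tested in the comparison set which entries were counted, which can lower the dose shares. Left out were genes such as Cxcl9 (1.04 FPKM untreated and 163 at 20 U/ml) and Iigp1 (5.53 and 415). The labels and headers do not say whether the tables share libraries.

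**Figure D5:**
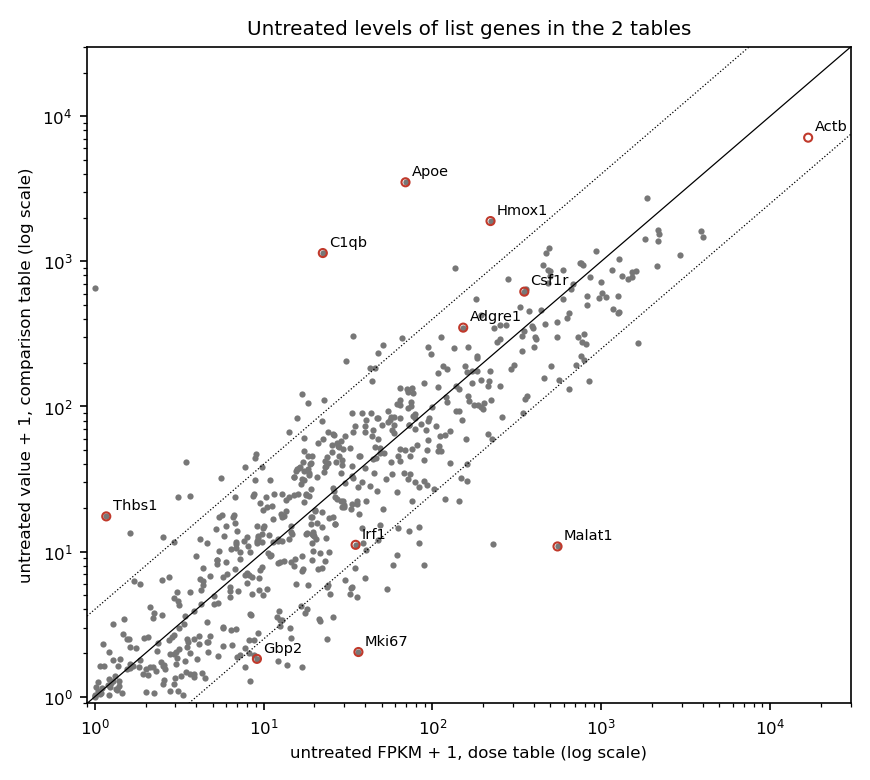
Untreated values plus 1 of single-gene list members in the dose table (horizontal, FPKM) and in the comparison (vertical), both on log scales, with dotted lines at 4-fold. Apoe, C1qb and Hmox1 lie above the lines and Malat1 and Mki67 below them, while Csf1r and Adgre1 lie between.

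The remaining programme lists went as follows, beside 21.1% higher and 17.3% lower among all tested entries. Of 16 glucocorticoid receptor targets 9 were higher and 1 lower, and Fkbp5, a defining target, was at 19.3 against 23.1. Among 13 STAT6 targets and genes of alternative activation, 7 were higher and 1 lower. Tgm2, a transglutaminase, was at 1857 against 206, and Arg1 was at 0.357 against 0.247. Of 21 matrix, coagulation and growth factor genes 13 were higher and 2 lower, with the elastase Mmp12 at 1483 against 409 and Pdgfa at 136 against 12.03. The MYC and ribosome biogenesis list of 15 had 2 higher and 5 lower, with Myc itself at 151 against 35.9 and Srm, spermidine synthase, at 4.21 against 61.7. Adhesion and migration receptors had 6 higher and 4 lower of 20, or 6 and 9 under upper-quartile scaling. In that list the chemokine receptor Cxcr4 stood at 596 against 29.7 while the integrin Itga4 was at 0.91 against 20.6. The list of the IFNγ receptor, JAK, STAT and SOCS genes had 9 higher and 1 lower of 16, interferon regulatory factors 3 and 0 of 9, pattern receptors 7 and 2 of 22, class II and co-stimulation 5 and 2 of 12, complement and Fc receptors 1 and 4 of 13, and macrophage identity 7 and 6 of 19. Upper-quartile scaling turned the last pair of counts into 0 and 7 for complement and 6 and 10 for macrophage identity. Replication-dependent histones had 2 higher and 0 lower of 9.

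The cells carry the markers of macrophages in both conditions. Csf1r, the receptor of colony-stimulating factor 1, was at 421 against 618, Adgre1 (F4/80) at 191 against 348, Cd68 at 751 against 1427 and Mpeg1 at 436 against 788, all with the authors' mark and none past the size rule, although under upper-quartile scaling Adgre1, Cd68 and Mpeg1 passed it at -1.23, -1.29 and -1.22. Spi1 (780 against 290) and Cebpb (1234 against 58.1), transcription factors of the lineage, were higher, and Maf (16.2 against 104) lower. Complement genes C1qa (40.3 against 263) and C1qc (214 against 904) and the receptor Mrc1 (47.1 against 145) were lower.

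Markers of other cells were mostly near 0. Counting entries of 1 gene, those under 1 in both conditions were 13 of 13 for T and NK cells, 8 of 10 for B cells, 11 of 13 for neutrophils, 10 of 11 for mast cells and basophils, 7 of 9 for dendritic cells, 8 of 10 for stroma and endothelium, 9 of 11 for the erythroid and megakaryocyte lines and 5 of 10 for osteoclasts. Cd3e, Ly6g and Col1a1 were listed at 0 in both. Some members of these lists were far from 0 in both conditions. The summed erythroid and megakaryocyte markers went from 1141 to 828, nearly all of it Pf4 (824 against 1138). Bst2 of the dendritic cell list was at 55.2 against 110, and Vwf of the stromal and endothelial list at 11.92 against 21.995. Of the B cell list, Blnk was at 49.2 against 48.3 and Ighm at 5.11 against 13.5. The summed neutrophil markers went from 8.47 to 56.1, nearly all of it Mmp8 (52.5 against 6.41), and the mast cell markers from 0.445 to 12.2, nearly all of it Gata2 (11.6 against 0.034). In bulk RNA, fewer cells of a type and less RNA per cell cannot be told apart.

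Transcript features differed between the directions among protein-coding genes with a mean value of at least 1. The median length of the longest coding transcript in GENCODE M21 was 3846 nt for 2182 higher genes, 2525 nt for 1894 lower genes and 3000 nt for 4760 others. The 3′ untranslated regions had medians of 1541, 895 and 1107 nt. The AU-rich heptamer TATTTAT, known from short-lived mRNAs, was in 39.3%, 22.6% and 29.8% of them. Among untranslated regions of 500 to 1499 nt it was in 28.2%, 18.6% and 24.1%, in 42.0% of the 69 such genes with a ratio of 3 or more, and in 30.4% of the 23 with a ratio of -3 or less. The last share was above that of all lower genes. GC content had medians of 49.0%, 51.2% and 49.7%. Promoters were read for another set, measured genes with a promoter entry, not limited to coding genes. There TGACGTCA was found in 4.86% of 1830 higher, 2.19% of 1552 lower and 3.94% of 3983 other genes. These shares are descriptions, and length also enters the authors' calculation of the values.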

How the data were processed

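RNA-seq of mouse bone-marrow macrophages was processed by the authors with TopHat2 2.1.1, Cufflinks 2.1.1 and Cuffdiff 2.1.1 on the mouse build mm10. These names come from the submitters' processing notes. The deposited comparison gives, per the file headers, 1 value per condition, a log2 fold change, a p-value and a q-value for each entry. Its header names no unit for the values. Cuffdiff normally writes FPKM, but the unit is treated here as not given. The deposited dose table gives 1 FPKM per group, per the file headers, and its untreated column names no unit. Depth per library is unknown.

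From these values log2((treated + 1) / (untreated + 1)) was computed over all entries with status OK, with Python 3.11.15, numpy 2.4.6 and pandas 2.3.3, and checked on simulated data. The authors' log2 values equalled the ratio without pseudocount within 0.001 for all 12742 finite ones. With 1 value per condition no test was made, and the size rule replaced it. p-values, q-values and significance marks are the authors' deposited ones.

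Named genes were the 4 markers, the 15 largest and 15 smallest ratios with at least 2 in the higher condition, the 5 highest values per condition, up to 4 members with the largest ratios in size per list, 15 IFNγ genes and macrophage markers. Genes beyond this rule were named after their values were seen, mostly as further members of a list. The members and the 46 lists were chosen with earlier results of these data known. Of 865 list genes, 641 had an OK entry of their own, and merged entries were left out of lists. Positions, lengths and 3′ ends came from GENCODE M21 (GRCm38), where 96.8% of such entries had 1 match. Promoters came from RefSeq (GRCm38.p6). Alternatives changed the pseudocount, the filter, the scaling and the entries used. A few genes of the named lists are not reported here.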

Additional observations from a re-analysis of the deposited data

Results flagged for a closer look

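A handful of entries outside the tested set had a value in treated cells and 0 in untreated cells, all with the status HIDATA, the mark for too many fragments at a locus. In the authors' deposited table these were Lyz2, lysozyme, at 4366, Psap, the precursor of saposins, at 2081, Ctsb, a lysosomal protease, at 1050, Fdft1, squalene synthase, at 31.9, and the entry that merges Ctsd with Ifitm10 and RP23-145I16.3 at 8932. Lyz2, Psap, Ctsb, Fdft1 and the merged entry carry a q-value of 1. In the dose table all 5 were listed at 0 in untreated cells too, and no fold is given.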

How the results depend on the processing

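No paired analysis was possible because the comparison gives 1 value per condition, and for the same reason no replicate could be left out. The counts of higher and lower entries stayed within 1.5 times the reported ones under all 10 alternatives, of which leaving out RNAs under 200 nt was added after seeing the data, from 1929 to 3480 higher and from 1583 to 3222 lower. Requiring the size rule as well as the authors' mark left 4682 of 8861 entries. No list median or named ratio past the size rule changed sign under a pseudocount of 0.1, median-centring or upper-quartile scaling, the last of which was added for these after seeing the data. Requiring a mean value of at least 1 changed the sign of smaller medians. Antiviral genes went from 0.27 to -0.09, GTPases from 0.13 to -0.86, heat shock from 0.41 to -0.13 and LXR from -0.30 to 0.01. Medians of cytokines (1.01), iron (-1.05), neutrophil markers (1.58) and histones (1.32) then passed the size rule. Under upper-quartile scaling 3 list medians fell under the size rule: glucocorticoid targets (0.96), matrix and growth factor genes (0.75), and the receptor, JAK, STAT and SOCS list (0.88). The medians of complement and Fc receptors (-1.20), macrophage identity (-1.08) and respiratory chain and TCA cycle (-1.13) then passed it. Adgre1 (-1.23), Cd68 (-1.29) and Mpeg1 (-1.22) did too. Lower genes went from 3 to 8 among antiviral genes, from 4 to 9 among adhesion receptors, from 10 to 17 in the respiratory chain, from 4 to 7 in complement, from 6 to 10 in macrophage identity, and from 0 to 1 among chemokines, cAMP targets, NRF2 genes, TGF beta targets and GTPases. Lower genes also went from 11 to 15 in MHC class I, from 9 to 11 in glycolysis, from 6 to 8 in LXR and from 7 to 9 in lysosome. Higher genes went from 9 to 6 among chemokines, from 13 to 10 among matrix genes and from 13 to 11 in NF-κB. They went from 9 to 7 among cytokines, from 8 to 6 among antiviral genes and from 7 to 5 in lysosome. The heat shock, MYC and histone lists went from 2 to 1 higher and complement from 1 to 0. Smaller changes in other lists are left out. Ifngr2 fell under the size rule at 0.70. Low values limit what ratios with a pseudocount show: Gbp3 and Gbp5 were at 0.73 and 0.54, and at 1.59 and 1.79 with 0.1.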

Other observations

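Some host RNAs of small nucleolar RNAs stood in merged entries, which the lists left out, and were named after their values were seen. In the authors' deposited table Snhg1 was at 394 against 29.1, Snhg12 at 138 against 9.51, Snhg5 at 82.8 against 7.74 and Gas5 at 470 against 224, while Snhg3 was at 15.9 against 24.8. Epb41l4aos, a noncoding RNA with its own entry, was at 41.3 against 4.07. Neat1, the scaffold of paraspeckles, merged with Gm27702, was at 74.5 against 9.199.

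RNA classes differed in how their ratios spread. Of 547 processed pseudogenes, 20 were higher (3.66%) and 10 lower (1.83%), beside 21.1% and 17.3% of all tested entries. Of 497 antisense RNAs 90 were higher (18.1%) and 28 lower (5.63%). Among 246 lincRNAs the counts were 38 (15.4%) and 13 (5.28%). Both classes had smaller shares than all tested entries in either direction. The labels do not say whether counting used strand. Of 76 microRNA entries 40 were higher (52.6%) and 20 lower (26.3%), with 32 listed at 0 in 1 condition and 8 marked by the authors. In all, 112 tested entries were listed at 0 in 1 condition, of which 63 were RNAs under 200 nt.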
